A study of Mus musculus with 18 samples.

Results

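The transcripts described here are those of NRF2 and of the antioxidant genes it is known to drive, in mouse macrophages with and without the transcription factor Klf3. A list of 10 genes was used: Nfe2l2 (the gene of NRF2), Keap1, Hmox1, Nqo1, Gclm, Gclc, Slc7a11, Txnrd1, Srxn1 and Gsr. Members were the probe sets that the array annotation assigned to exactly 1 of these symbols, and 15 probe sets for 9 genes were found among 45037 probe sets and 17097 genes. Keap1 had no such probe set in the annotation used and was not analysed here. The cells were bone marrow-derived macrophages of male FVB/NJ mice aged 10 to 14 weeks, either wild type (WT) or knockout for Klf3 (KO), a zinc finger factor of the Krüppel-like family. All cells were grown from marrow for 7 to 10 days in L929-conditioned medium, which supplies the macrophage growth factor M-CSF, and then moved to regular medium. The 6 groups were WT and KO cells taken at the medium change (0 h), after 8 h with the vehicle phosphate-buffered saline, and after 8 h with 100 ng/mL lipopolysaccharide (LPS), a bacterial cell wall component. Each group held 3 samples with 1 array apiece, so 18 arrays of the Affymetrix plate format HT MG-430PM were used. The labels do not say what was deleted in Klf3, nor whether each sample of a group is a different mouse or culture. The p-values here therefore speak of sample-to-sample spread, which may be technical.

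NRF2 is a transcription factor that KEAP1 holds in the cytoplasm and hands to a ubiquitin ligase for destruction. Electrophiles and oxidants modify KEAP1, NRF2 escapes and, paired with a small MAF protein, binds antioxidant response elements in genes for glutathione synthesis, thioredoxin recycling, heme breakdown and quinone reduction. Because NRF2 is controlled largely through its stability, its transcript is a poor gauge of its activity, and macrophages use its targets to survive the oxidants they make in inflammation.

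Stretches of promoter are shown because they hold the letters through which NRF2 and other stress factors are known to act. RefSeq promoter windows of GRCm38.p6, each 300 bases (250 before and 50 after a start), were at hand for 7 of the 10 genes as 9 windows, with 3 for Txnrd1. Hmox1, Gclc and Gsr had no entry. Both strands were searched for the antioxidant response element core TGACNNNGC, for the AP-1 site TGANTCA, and for the amino acid response element TGATGNAA, to which ATF4 and C/EBP proteins bind. The core was in 4 of the 9 windows and in 12.4% of all 32851 windows. AP-1 letters were in 1 of the 9 and in 7.81% of all. Amino acid response element letters were in 1 of the 9 and in 3.97% of all. A match is only a match of letters. The stretches that hold the matches before the start follow 5′ to 3′ on the strand of the gene, with the matched letters in capitals.
Slc7a11 (minus strand, chr3:50443633-50443699, a pair of amino acid response elements facing each other): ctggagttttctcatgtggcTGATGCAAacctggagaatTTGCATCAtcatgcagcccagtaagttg
Srxn1 (plus strand, chr2:152105402-152105505, a pair of AP-1 sites): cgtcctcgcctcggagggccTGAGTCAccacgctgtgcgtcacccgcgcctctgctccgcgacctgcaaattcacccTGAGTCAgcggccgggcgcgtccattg
Gclm (plus strand, chr3:122245403-122245451, 1 core on the opposite strand): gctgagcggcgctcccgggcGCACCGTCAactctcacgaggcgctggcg
Txnrd1, the second of its start sites (plus strand, chr10:82859094-82859142, 1 core on the opposite strand): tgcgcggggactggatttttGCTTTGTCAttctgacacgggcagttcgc
Nfe2l2 (minus strand, chr2:75704875-75704913, 1 core): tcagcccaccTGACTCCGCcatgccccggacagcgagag
Matches to different searched patterns did not overlap in these stretches. The core was searched only as TGACNNNGC, so other spellings of the element were not sought. The palindromic AP-1 letters were found on both strands at the same place. Srxn1 had a further core 28 bases past its start.

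Levels below are log2 intensities after quantile normalization, and differences are in the same log2 units, with standard errors (SE) from the limma fit over all 18 arrays. Adjusted p-values are Benjamini-Hochberg values over the 17097 genes, and a gene was called past 0.05. Klf3 itself had a deposited intensity of 82.9 to 317 across WT arrays (n = 9) and of 4.76 to 18.5 across KO arrays (n = 9), with no overlap. All 8 macrophage markers were above the level of nonspecific control probe sets in 18 of 18 arrays, and none of 6 stromal and none of 5 mast cell markers was above it in any array. Single markers of other cells were: Itgax of the dendritic list in 18 arrays, Cd3e of T cells in 17, Cd79b of B cells in 14, and Epor and Klf1 of the erythroid list in 6 and 3. The other 4 measured dendritic, 4 T and NK cell and 3 B cell markers were above it in 0. The summed dendritic level was 5.94 to 6.91 at 0 h or after vehicle and 6.61 to 8.01 after LPS. Neutrophil markers had a higher summed level after LPS (8.74 to 9.71) than at 0 h or after vehicle (5.71 to 6.73). Among them S100a8 was above the nonspecific level in 12 arrays, Camp in 6 and Ngp in 1, while S100a9, Ltf, Elane and Mpo were above it in 0. The Gapdh 5′ minus 3′ signal, a measure of RNA length, had WT and KO means of 0.14 and 0.09 at 0 h. With vehicle the means were -0.17 and -0.19, and with LPS -0.38 and -0.44 (n = 3 each, log2). Each plate row held 1 treatment; the row cannot be told apart from the treatment, and the part of RNA length or of other cells in the LPS results was not tested. In such bulk samples, fewer cells of a type and less RNA per cell cannot be told apart.

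LPS raised most of the antioxidant genes in both genotypes. In WT cells 6 of 9 measured members rose against vehicle (13.7% of all genes did) and 1 fell (18.6% of all genes did). In KO cells 7 of 9 rose (13.9% of all genes did) and none fell (20.6% of all genes did), while 8 had an unadjusted p under 0.05, beside 7104 of all 17097 genes. The median change of the 9 was 1.40 in WT and 1.93 in KO cells, beside -0.01 and -0.03 over all genes. Slc7a11, Hmox1, Srxn1, Gsr, Txnrd1 and Nqo1 rose in both genotypes, Gclc passed the threshold only in KO cells, Gclm in neither, and Nfe2l2 was the member that fell in WT cells. Without the third KO vehicle array, which stood apart from its group for these genes as described further on, 7 of 9 passed the threshold upward in WT and 8 of 9 in KO cells. That array was picked on the values of these genes, so these counts are no separate test. It is not part of the WT comparison, whose median change stayed at 1.40. There only the spread estimated over all groups changed.

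**Figure D1:**
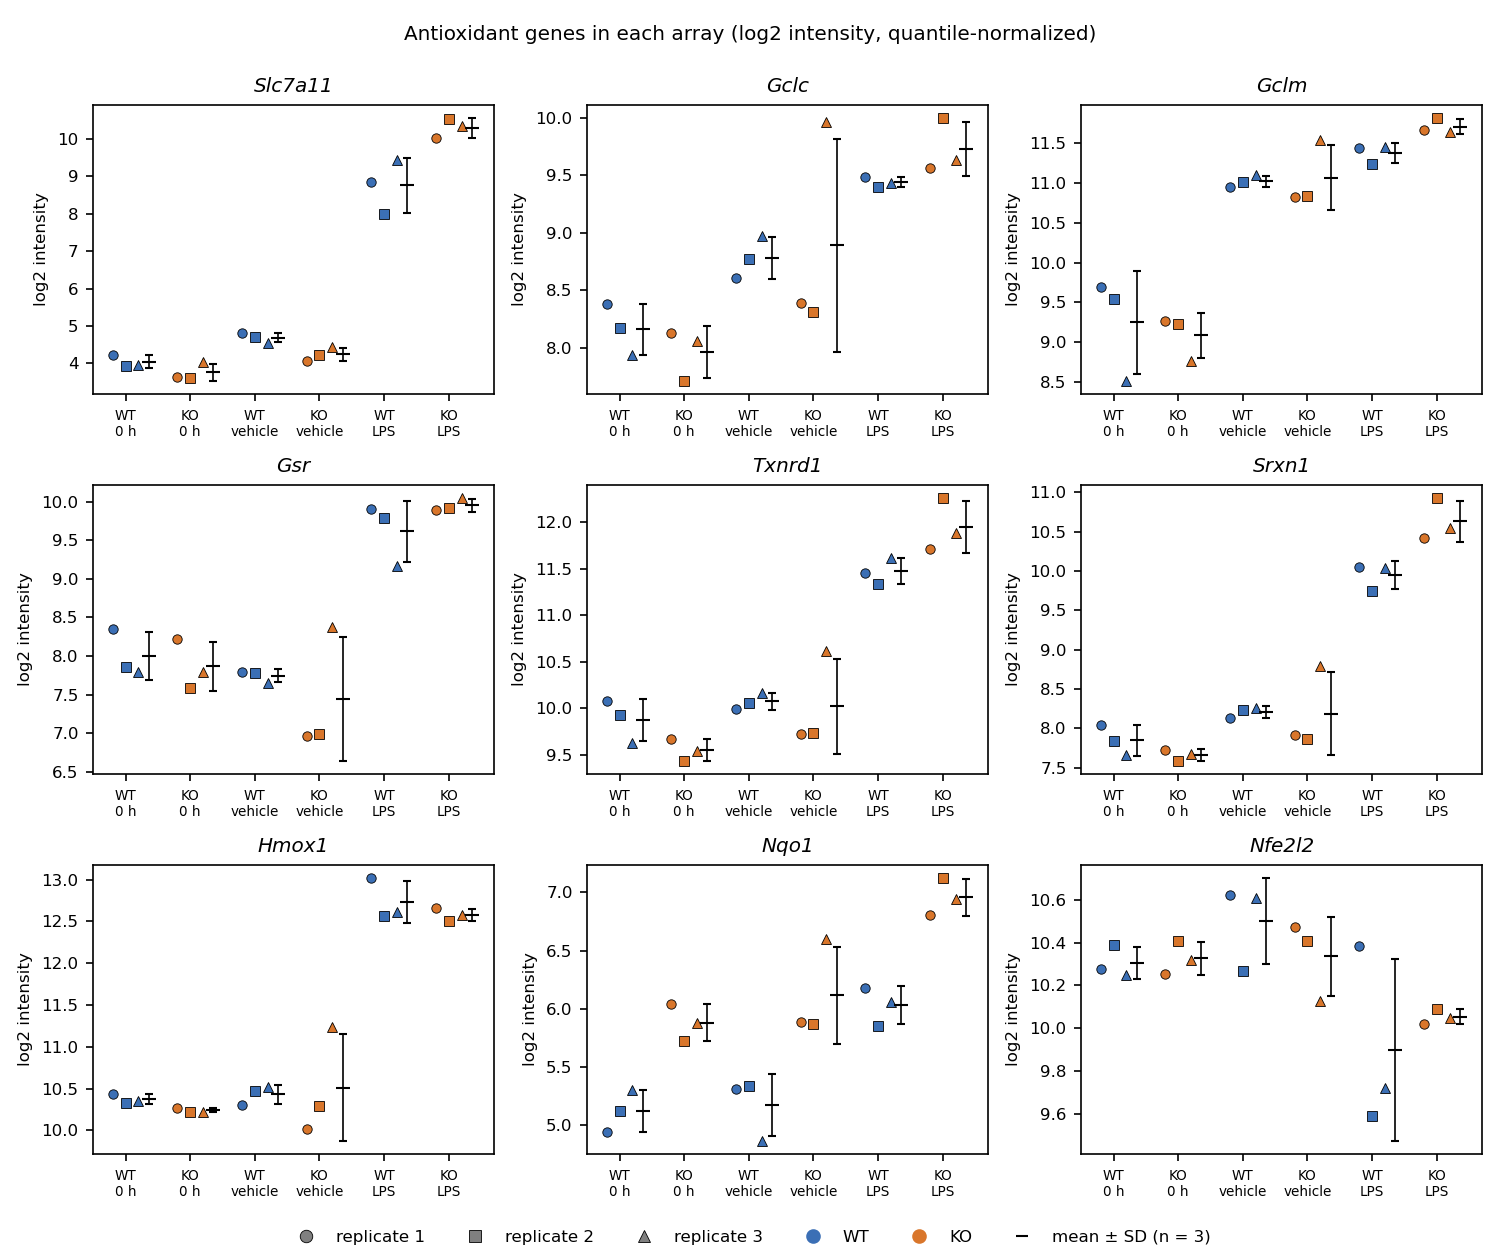
Log2 intensity (y axis, own range in each panel) of the 9 measured genes in the 18 arrays (x axis, 6 groups); symbols mark replicate numbers, bars the mean ± SD of 3 arrays. Slc7a11 spans 3.61 to 10.53, Nqo1 is higher in every KO group than in the WT group beside it, and the triangle of KO vehicle stands above its group for Gclc, Gsr, Hmox1, Txnrd1 and Srxn1.

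Nfe2l2 encodes NRF2. Its brighter probe set, 1416543_PM_at, read 10.62, 10.27 and 10.61 in WT cells after vehicle and 10.38, 9.59 and 9.72 after LPS. KO cells read 10.47, 10.41 and 10.13 with vehicle, then 10.02, 10.09 and 10.05 with LPS. The WT groups overlapped because the first LPS array stayed at the vehicle level, and every KO LPS array was below every KO vehicle array. The difference was -0.60 ± 0.17 in WT (limma, adjusted p = 0.0115) and -0.28 ± 0.17 in KO cells (limma, adjusted p = 0.235). The WT call was lost without WT replicate 3 (-0.46, limma, adjusted p = 0.160) and with arrays shifted to the same median (-0.52, limma, adjusted p = 0.145).

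The second Nfe2l2 probe set, 1457117_PM_at, went the other way. It read 7.59, 8.01 and 7.67 in WT cells at 0 h, 6.69, 6.60 and 6.33 after vehicle, and 7.24, 7.23 and 7.24 after LPS. In KO cells the values were 7.54, 7.43 and 7.57 at 0 h, 6.57, 6.67 and 6.39 after vehicle, and 7.00, 7.07 and 7.03 after LPS. No 2 conditions of a genotype overlapped: 0 h was highest, vehicle lowest and LPS between them. Fitted among all probe sets, it was lower after vehicle than at 0 h in WT (-1.22 ± 0.13, limma, adjusted p = 3.38e-05) and in KO cells (-0.97 ± 0.13, limma, adjusted p = 0.000226). It was higher after LPS than after vehicle by 0.70 ± 0.13 in WT (limma, adjusted p = 0.000831) and by 0.49 ± 0.13 in KO cells (limma, adjusted p = 0.0105). The drop from 0 h passed the threshold under each of the 3 other scalings tried, with values from -1.37 to -1.47 in WT and from -1.22 to -1.26 in KO cells. The LPS rise did not: on deposited values it was -0.06 in WT and 0.24 in KO cells, and neither passed the threshold. The brighter probe set had no such drop from 0 h to vehicle (0.20 ± 0.17 in WT and 0.01 ± 0.17 in KO cells), so the array gives no single answer for the Nfe2l2 transcript.

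**Figure D2:**
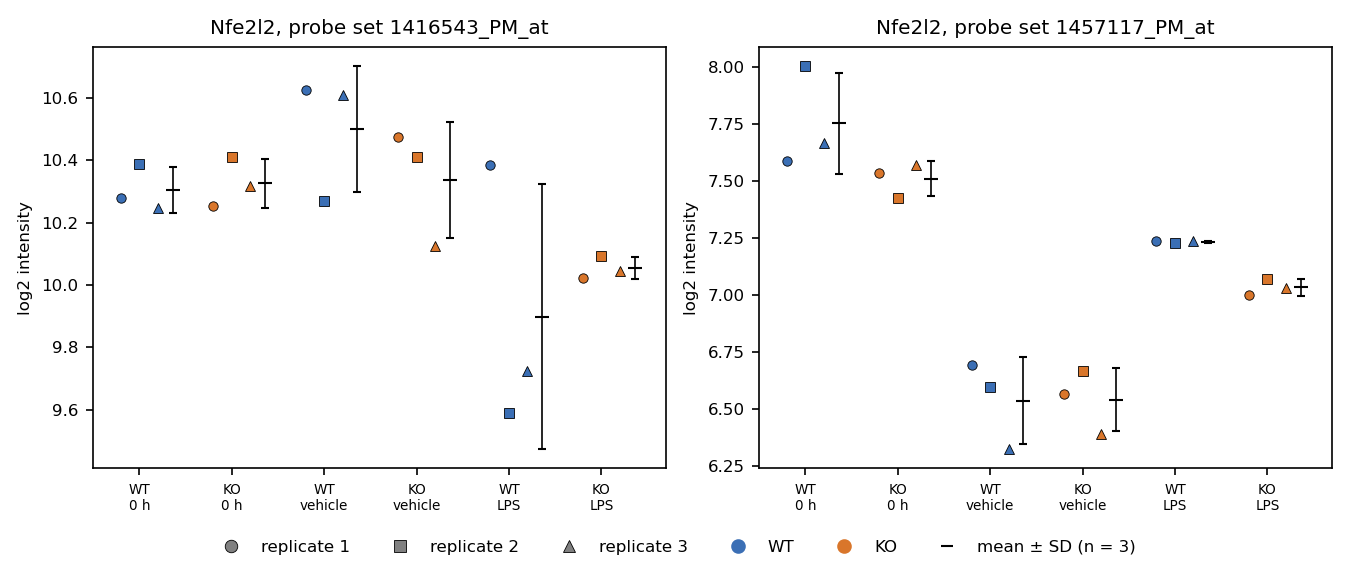
Log2 intensity (y axis, own range in each panel) of the 2 Nfe2l2 probe sets in the 6 groups (x axis), 3 arrays each, with mean ± SD. The left probe set is lowest after LPS, and the right one is lowest after vehicle, between 6.33 and 6.69.

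Hmox1 encodes heme oxygenase 1, which opens the heme ring and frees iron, carbon monoxide and biliverdin. It read 10.30, 10.47 and 10.52 in WT cells after vehicle and 13.02, 12.56 and 12.61 after LPS. In KO cells it read 10.01, 10.29 and 11.23 after vehicle and 12.66, 12.51 and 12.58 after LPS. Every LPS array was above every vehicle array in both genotypes. Hmox1 rose 4.93-fold in WT (2.30 ± 0.22, limma, adjusted p = 5.27e-07) and 4.20-fold in KO cells (2.07 ± 0.22, limma, adjusted p = 1.34e-06). The KO response differed from the WT response by -0.23 ± 0.31 (limma, adjusted p = 0.828), and by 0.13 without the third KO vehicle array.

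Nqo1 encodes NAD(P)H quinone dehydrogenase 1, which reduces quinones by 2 electrons at once and is a widely used readout of NRF2 activity. WT cells read 4.94, 5.12 and 5.30 at 0 h, 5.31, 5.34 and 4.86 after vehicle, and 6.18, 5.85 and 6.06 after LPS. KO cells read 6.04, 5.72 and 5.88 at 0 h, 5.88, 5.87 and 6.60 after vehicle, and 6.80, 7.12 and 6.94 after LPS. In each condition every KO array was above every WT array, and the KO arrays at 0 h (5.72 to 6.04) overlapped the WT arrays after LPS (5.85 to 6.18). Nqo1 rose with LPS by 0.86 ± 0.19 in WT (limma, adjusted p = 0.0020) and by 0.84 ± 0.19 in KO cells (limma, adjusted p = 0.00219), and the LPS responses differed by -0.02 ± 0.27 (limma, adjusted p = 0.990), or by 0.22 without the third KO vehicle array. These LPS calls were lost on deposited values (0.13 in WT and 0.56 in KO cells) and with arrays matched on hybridisation controls (0.14 and 0.59), the WT call also with arrays shifted to the same median (0.51), and the KO call without KO replicate 2 (0.63, limma, adjusted p = 0.0641).

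The KO minus WT difference of Nqo1 was 0.76 ± 0.19 at 0 h (limma, adjusted p = 0.199), 0.94 ± 0.19 after vehicle (limma, adjusted p = 0.232), 0.70 there without the third KO vehicle array (limma, adjusted p = 0.295), and 0.93 ± 0.19 after LPS (limma, adjusted p = 0.00807). Within the 3 plate columns, each with 1 array per group, it was 0.79, 0.74 and 0.76 at 0 h, 0.56, 1.02 and 1.26 with vehicle, and 0.95, 0.74 and 1.09 with LPS. Averaged over the 3 conditions by replicate number, a comparison added after the data were seen, the WT averages were 5.47, 5.44 and 5.41 and the KO averages 6.24, 6.24 and 6.47. The difference of these averages was 0.88 ± 0.09, or 1.84-fold (limma, adjusted p = 0.0102). Nqo1 was the 1 of 9 members past the threshold there (0.368% of all genes were). Whether arrays with the same number share a mouse or culture is not stated, so this SE and p-value rest on an assumed grouping. The call after LPS was lost without WT replicate 2 (0.84, limma, adjusted p = 0.0672), without KO replicate 2 (0.84, limma, adjusted p = 0.0592) and in a fit of those 2 groups alone (limma, adjusted p = 0.0632). The averaged call was lost without WT replicate 1 (0.89, limma, adjusted p = 0.0527).

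Slc7a11 encodes xCT, the cystine carrier that brings in the limiting amino acid of glutathione in exchange for glutamate. WT cells read 4.24, 3.92 and 3.97 at 0 h, 4.81, 4.70 and 4.56 after vehicle, and 8.84, 7.98 and 9.45 after LPS. KO cells read 3.63, 3.61 and 4.02 at 0 h, 4.07, 4.22 and 4.43 after vehicle, and 10.01, 10.53 and 10.34 after LPS. At 0 h the gene was above the nonspecific level in 1 of 3 WT arrays and in 0 of 3 KO arrays, so these hold only a bound, and it was above that level in all vehicle and LPS arrays. KO cells were the lower of the genotypes after vehicle and the higher after LPS, with no overlap in either condition.

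LPS raised Slc7a11 16.7-fold in WT (4.07 ± 0.26, limma, adjusted p = 5.71e-09) and 66.5-fold in KO cells (6.05 ± 0.26, limma, adjusted p = 4.44e-11), the largest changes among the members. Vehicle values lay close to the nonspecific level (3.71 to 4.54 over the arrays), so both folds depend on the background. The KO response exceeded the WT response by 1.99 ± 0.37, or 3.97-fold (limma, adjusted p = 0.0127), and Slc7a11 was the 1 of 9 members past the threshold for this difference (0.521% of all genes were higher in this contrast and 0.597% lower). Within the 3 plate columns this difference was 2.29, 1.05 and 2.63. It kept its sign and a size between 1.60 and 2.65 under every alternative tried. Its call was lost without WT replicate 1 (1.97, limma, adjusted p = 0.0543), KO replicate 1 (2.05, limma, adjusted p = 0.0561), KO replicate 2 (1.86, limma, adjusted p = 0.129) or KO replicate 3 (2.06, limma, adjusted p = 0.0607), and in a fit of the 4 groups alone (limma, adjusted p = 0.0721).

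After LPS, Slc7a11 was 2.91-fold higher in KO than in WT cells (1.54 ± 0.26, limma, adjusted p = 0.00204), a call lost in a fit of those 2 groups alone (limma, adjusted p = 0.132). After vehicle the difference was -0.45 ± 0.26 (limma, adjusted p = 1.00). A second, dimmer probe set for Slc7a11, 1443536_PM_at, read 6.13, 5.06 and 5.93 in WT and 7.05, 6.60 and 7.10 in KO cells after LPS, and was above the nonspecific level in 0 of 3 WT and 1 of 3 KO vehicle arrays. Its LPS rise in WT cells was at least 3.53-fold (limma, adjusted p = 1.22e-05). Its KO minus WT difference after LPS was 1.21 ± 0.30 (limma, adjusted p = 0.0320). No difference of responses is given for it, since most of its vehicle values were not above the nonspecific level.

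Gclc and Gclm encode the catalytic and the modifier subunit of glutamate-cysteine ligase, the first step of glutathione synthesis. Gclc read 8.61, 8.77 and 8.97 in WT cells after vehicle and 9.49, 9.40 and 9.44 after LPS. In KO cells Gclc read 8.39, 8.32 and 9.96 with vehicle, then 9.56, 10.00 and 9.63 with LPS. The WT groups did not overlap, and the KO groups did because of the third vehicle array. The LPS difference of Gclc was 0.66 ± 0.31 in WT (limma, adjusted p = 0.123) and 0.84 ± 0.31 in KO cells (limma, adjusted p = 0.0443). Without that array it was 0.66 in WT (limma, adjusted p = 0.00355) and 1.37 in KO cells (limma, adjusted p = 1.48e-05). The WT difference does not include that array, so there only the spread estimated over all groups changed. The KO call was lost without WT replicate 1, 2 or 3 (0.84 each), KO replicate 1 (0.67) or KO replicate 2 (0.42, limma, adjusted p = 0.445). It was also lost without the first WT LPS array (limma, adjusted p = 0.0509), with every probe set fitted on its own (limma, adjusted p = 0.0512) and with only the groups compared (limma, adjusted p = 0.192). The difference of Gclc responses was 0.18 ± 0.43 (limma, adjusted p = 0.922), and 0.72 without the third KO vehicle array (limma, adjusted p = 0.177).

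Gclm rose over the 8 h in regular medium in both genotypes. It read 9.70, 9.55 and 8.51 in WT cells at 0 h, 10.95, 11.01 and 11.09 after vehicle, and 11.43, 11.24 and 11.45 after LPS. In KO cells it read 9.27, 9.23 and 8.76 at 0 h, 10.83, 10.84 and 11.53 after vehicle, and 11.66, 11.81 and 11.63 after LPS. All 6 vehicle arrays were above all 6 arrays of 0 h, and each LPS group was above its vehicle group without overlap. Vehicle against 0 h gave a 3.41-fold rise in WT (1.77 ± 0.25, limma, adjusted p = 0.000228) and a 3.94-fold rise in KO cells (1.98 ± 0.25, limma, adjusted p = 9.83e-05). LPS against vehicle was 0.35 ± 0.25 in WT (limma, adjusted p = 0.337) and 0.64 ± 0.25 in KO cells (limma, adjusted p = 0.0638). The latter passed the threshold without WT replicate 3 (0.64, limma, adjusted p = 0.0184), without KO replicate 3 (0.91, limma, adjusted p = 0.0284) and without the third KO vehicle array alone (0.87, limma, adjusted p = 0.0166). It also did so under each of 3 other scalings (1.00 to 1.11), with the filter on dim genes (limma, adjusted p = 0.0429) and with the floor at the nonspecific level (limma, adjusted p = 0.0484). Both comparisons share the vehicle arrays.

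Gsr encodes glutathione reductase, which returns oxidized glutathione to its reduced form with NADPH. It read 7.80, 7.78 and 7.65 in WT cells after vehicle and 9.90, 9.79 and 9.16 after LPS. In KO cells it read 6.97, 6.99 and 8.37 after vehicle and 9.89, 9.91 and 10.04 after LPS. Every LPS array was above every vehicle array, and the first and second KO vehicle arrays were the lowest of all 18. Gsr rose 3.66-fold in WT (1.87 ± 0.30, limma, adjusted p = 0.000128) and 5.68-fold in KO cells (2.51 ± 0.30, limma, adjusted p = 5.50e-06), with a difference of responses of 0.63 ± 0.43 (limma, adjusted p = 0.603). Without the third KO vehicle array the KO rise of Gsr was 2.97 and the difference of responses 1.10 (limma, adjusted p = 0.0993). Its second probe set, 1421817_PM_at, rose by 2.13 ± 0.29 in WT (limma, adjusted p = 3.16e-05) and by 2.61 ± 0.29 in KO cells (limma, adjusted p = 2.75e-06).

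Txnrd1, the cytosolic thioredoxin reductase, and Srxn1, the sulfiredoxin that revives over-oxidized peroxiredoxins, followed each other closely. Txnrd1 read 10.00, 10.05 and 10.17 in WT cells after vehicle and 11.45, 11.34 and 11.62 after LPS. In KO cells Txnrd1 read 9.72, 9.73 and 10.61, and then 11.71, 12.26 and 11.88. The LPS arrays of Txnrd1 were the high ones in both genotypes. Srxn1 read 8.13, 8.24 and 8.26 in WT cells after vehicle and 10.05, 9.75 and 10.04 after LPS. In KO cells Srxn1 read 7.91, 7.86 and 8.79 after vehicle and 10.42, 10.93 and 10.55 after LPS. In these readings every LPS array of both genes was above every vehicle array. Every KO LPS array was also above every WT LPS array, but not for the other Srxn1 probe sets.

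Txnrd1 rose 2.63-fold in WT (1.40 ± 0.21, limma, adjusted p = 5.53e-05) and 3.81-fold in KO cells (1.93 ± 0.21, limma, adjusted p = 1.52e-06). Srxn1 rose 3.34-fold in WT (1.74 ± 0.21, limma, adjusted p = 5.44e-06) and 5.44-fold in KO cells (2.44 ± 0.21, limma, adjusted p = 9.51e-08). The KO response of Srxn1 exceeded the WT response by 0.71 ± 0.29 (limma, adjusted p = 0.325), that of Txnrd1 by 0.53 ± 0.29 (limma, adjusted p = 0.502), and after LPS KO cells read Srxn1 0.68 ± 0.21 higher than WT cells (limma, adjusted p = 0.0622). The third KO vehicle array was picked because these genes were high in it, so fits without it are no separate test. In such a fit the difference of responses was 0.83 for Txnrd1 (limma, adjusted p = 0.0949) and 1.01 for Srxn1 (limma, adjusted p = 0.0292). The comparison after LPS does not include that array, and only the spread estimated over all groups changed. There the Srxn1 difference stayed at 0.68 (limma, adjusted p = 0.00873). This Srxn1 difference after LPS also passed the threshold without KO replicate 3 (0.73, limma, adjusted p = 0.0333) and under 3 other scalings (0.91 to 1.18). Under those scalings the median KO minus WT difference over all genes moved up too, from -0.02 to 0.07, 0.29 and 0.34. The highest adjusted p of the Srxn1 difference over the alternatives was 0.258 (limma). The other 3 Srxn1 probe sets rose with LPS by 1.12 to 1.77 in WT and by 2.23 to 2.56 in KO cells. Their differences of responses ran from 0.79 to 1.12, none past the threshold. After LPS their genotypes overlapped: the highest WT arrays read 6.96, 8.14 and 9.42, and the lowest KO arrays 6.82, 7.77 and 9.23.

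**Figure D3:**
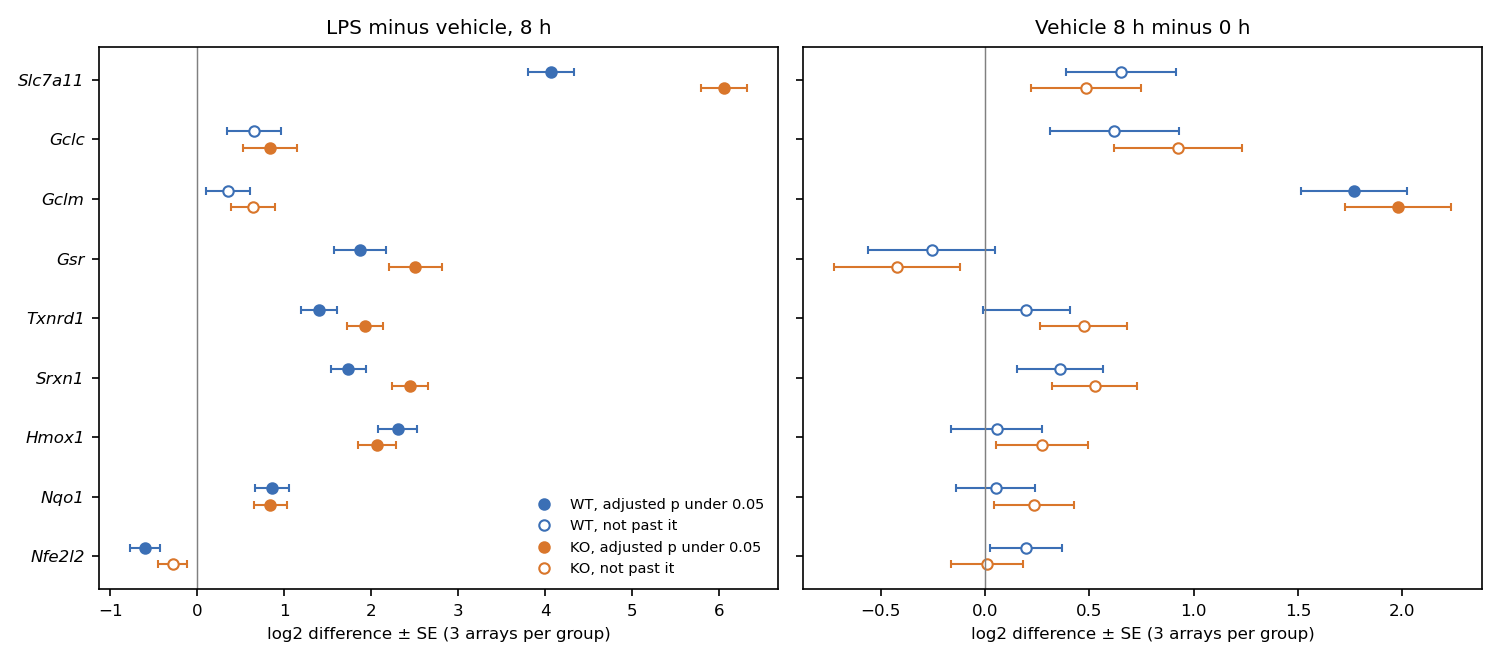
Log2 difference ± SE (x axis) of the 9 genes (y axis) for LPS minus vehicle (left) and vehicle minus 0 h (right), WT and KO; filled points had an adjusted p under 0.05. Slc7a11 shows the widest gap between genotypes with LPS (4.07 and 6.05), and Gclm is the filled gene on the right (1.77 and 1.98).

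Between the genotypes, few members passed the test. At 0 h none of 9 did (0.14% of all genes did), with 1 of 9, Nqo1, at an unadjusted p under 0.05 and 1059 of all genes. After vehicle again none did in limma (0% of all genes did), with 1 of 9, Nqo1, and 777 of all genes at an unadjusted p under 0.05. After LPS 2 of 9, Nqo1 and Slc7a11, were higher in KO cells (2.81% of all genes were) and none was lower (3.15% of all genes were). Another 2, Srxn1 and Txnrd1, brought the members at an unadjusted p under 0.05 after LPS to 4 of 9, beside 3245 of all 17097 genes.

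Gclm was the 1 member called over the 8 h with vehicle. In WT cells 1 of 9 members was higher than at 0 h (7.17% of all genes were) and none was lower (7.01% of all genes were). In KO cells 1 of 9 was higher (6.78% of all genes were) and none was lower (5.8% of all genes were). The vehicle responses of the genotypes differed for none of the 9 (0% of all genes), with 0 of 9 and 629 of all genes at an unadjusted p under 0.05. Of the members not called, Gclc was closest to the threshold in KO cells (0.92 ± 0.31, limma, adjusted p = 0.0610). In WT cells Gclc was at 0.62 ± 0.31 (limma, adjusted p = 0.224), further from it than Slc7a11 (0.65 ± 0.26, limma, adjusted p = 0.120). Without the third KO vehicle array the KO value of Gclc was 0.39 (limma, adjusted p = 0.175), while Gclc was called in WT cells (0.62, limma, adjusted p = 0.0123) and Gsr was called lower in KO cells (-0.89, limma, adjusted p = 0.0156), where it was -0.42 ± 0.30 with the array (limma, adjusted p = 0.442). The WT value of Gclc does not include that array, so there only the spread estimated over all groups changed.

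The third KO vehicle array carried raised levels of nearly the whole member list. It was the highest of the 3 KO vehicle arrays for 8 of 9 members, where 40.0% of all genes were highest in that array. For 7 of 9 members it was at least 0.5 log2 units above the mean of the other 2 arrays, as it was for 8.35% of all genes. Gclc was 1.60 higher, Gsr 1.39, Hmox1 1.08, Srxn1 0.91, Txnrd1 0.89, Nqo1 0.72 and Gclm 0.70. Slc7a11 was only 0.28 higher, and Nfe2l2 differed by -0.32. The median member excess was 0.89, beside 0.01 over all genes, and no other array had more than 2 members at least 0.5 above the others of its group. The KO arrays with the same number at 0 h and after LPS had median member excesses of -0.01 and -0.02. Over all genes the first WT LPS array stood further apart from its group. In it 13.8% of all genes, and 1 of 9 members, were at least 0.5 above the mean of the other 2 arrays. Its Gapdh 5′ minus 3′ signal was -0.07, beside -0.43 and -0.65 in the other WT LPS arrays.

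In the related lists the third KO vehicle array differed both ways. Over all 17097 genes, 1428 were at least 0.5 higher in it and 1172 at least 0.5 lower. Of 16 other detoxification and transport genes 5 were at least 0.5 higher there and 1 lower, of 11 ATF4 stress genes 5 and 1, and of 21 other glutathione genes 4 and 3. Of 12 NRF2 partners 0 were higher and 1 lower, of 11 thioredoxin genes 1 and 1, of 8 NADPH genes 1 and 0, and of 9 heme and iron genes 1 and 0. None of 8 macrophage markers was at least 0.5 higher and 2 were at least 0.5 lower. That array also had the lowest upper quartile of deposited intensity among the 6 vehicle arrays (97.2, beside 106 to 125 in the others) and the lowest Gapdh 5′ minus 3′ signal among them (-0.30, beside -0.23 to -0.07). The part of these in the members' levels was not tested. The array was singled out after its values were seen.

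**Figure D4:**
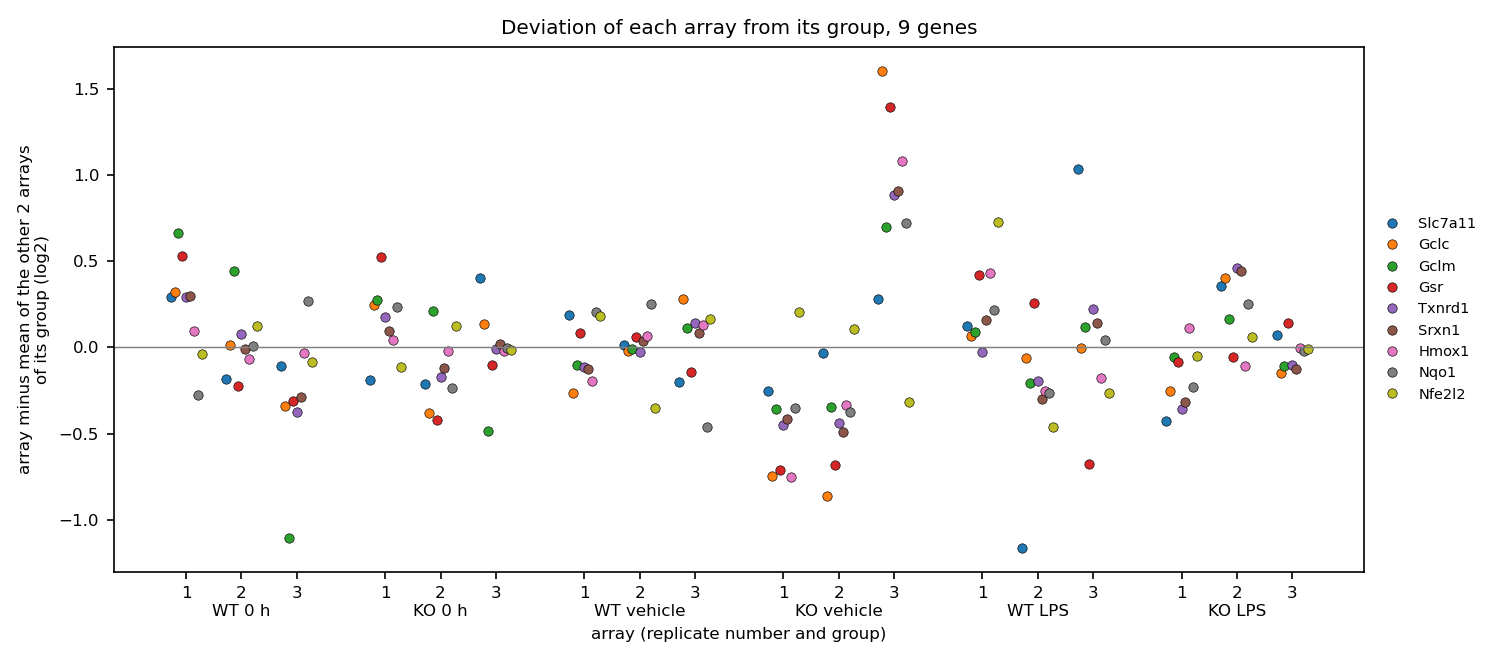
Each point is 1 of 9 genes in 1 of 18 arrays (x axis): its level minus the mean of the other 2 arrays of the group (y axis, log2). The third KO vehicle array has 7 of 9 genes at 0.5 or more, with Gclc at 1.60 and Gsr at 1.39.

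Counts of the related lists with LPS stand beside 13.7% of all genes higher and 18.6% lower in WT cells, and 13.9% higher and 20.6% lower in KO cells. Of 12 measured partners and regulators, 4 rose and 1 fell with LPS in each genotype, and their median change was 0.23 in WT and 0.31 in KO cells. Maff, a small MAF partner, was not above the nonspecific level in any WT vehicle array and rose at least 8.39-fold in WT cells (limma, adjusted p = 1.23e-07) and by 3.95 ± 0.30 in KO cells (limma, adjusted p = 2.53e-08). Mafg, another small MAF, rose by 0.78 and 0.88, and Nfe2l1, the NRF2 relative NRF1, by 0.56 and 0.43. Syvn1, an E3 ligase known to degrade NRF2, rose by 0.41 in WT cells and 0.92 in KO cells, but in WT cells its sign turned on deposited values (-0.12) and with arrays matched on hybridisation controls (-0.11). Bach1, the repressor that competes with NRF2 at Hmox1, fell in WT (-1.23 ± 0.15, limma, adjusted p = 1.01e-05) and in KO cells (-1.38 ± 0.15, limma, adjusted p = 2.25e-06).

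Of 21 measured glutathione genes outside the members, 3 rose and 9 fell in WT cells, and 5 rose and 10 fell in KO cells, with medians of -0.48 and -0.23. More genes fell than rose over all genes too. Mgst1, a microsomal glutathione transferase, fell in both genotypes (-1.66 in WT, -2.07 in KO), as did Gsto1, an omega class transferase (-1.48 and -1.25). Oplah, which returns oxoproline to glutamate, was not above the nonspecific level in any LPS array and was at least 1.77-fold lower in WT and at least 1.84-fold lower in KO cells. Glrx, glutaredoxin 1, rose by 2.85 and 2.34, Gstt1 by 2.69 and 2.47, and Slc3a2, the heavy chain that pairs with xCT, by 0.77 and 1.29. Gss, glutathione synthetase, rose in KO cells by 0.84 ± 0.19 (limma, adjusted p = 0.00185). Its KO response exceeded the WT response by 1.13 ± 0.26, only just past the threshold (limma, adjusted p = 0.04995). Gss was the 1 of 21 called for this difference (0.521% of all genes were higher and 0.597% lower). Over all genes these calls went from 89 higher and 102 lower to 39 and 41 in fits of only the groups compared.

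Thioredoxin genes split. Of 11 measured, 2 rose and 3 fell in WT cells, and 2 rose and 2 fell in KO cells. Txn1, thioredoxin, rose by 0.67 and 0.57 and the peroxidase Prdx1 by 0.46 and 0.66. Sesn1, a stress-induced sestrin, fell in both genotypes (-3.24 in WT, -3.57 in KO). Txnip, which binds and inhibits thioredoxin, fell more in KO cells (-0.61 in WT, -1.74 in KO), and its responses differed by -1.13 ± 0.26 (limma, adjusted p = 0.0435). It was the 1 of 11 called for this difference (0.597% of all genes were lower).

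Genes of NADPH supply and of heme and iron handling moved both ways. Of 8 NADPH genes 1 rose and 5 fell in WT cells, and 2 rose and 4 fell in KO cells. Me1, malic enzyme, rose by 0.81 and 0.98, while Idh1 (-1.43 and -1.17) and the transhydrogenase Nnt (-1.30 and -1.31) fell. Of 9 heme and iron genes 3 rose and 4 fell in WT cells, and 2 rose and 2 fell in KO cells. Slc48a1, a heme transporter of the lysosome, rose by 1.11 and 0.93, and Blvra, a biliverdin reductase, fell (-0.94 and -1.24). Slc40a1, the iron exporter ferroportin, fell in WT (-2.55 ± 0.39, limma, adjusted p = 7.68e-05) and was at -0.95 ± 0.39 in KO cells (limma, adjusted p = 0.0748), with a difference of responses of 1.61 ± 0.55 (limma, adjusted p = 0.219).

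Among 16 other detoxification and transport targets, 7 rose in each genotype, while 3 fell in WT and 5 in KO cells. Marco, a scavenger receptor, was not above the nonspecific level in any vehicle array and rose at least 49.3-fold in WT and at least 97.5-fold in KO cells. The exporters Abcc4 (1.50 and 1.82) and Abcc1 (1.21 and 1.77) rose, and the epoxide hydrolase Ephx1 fell (-1.07 and -1.10). Of 11 ATF4 stress genes, which include carriers and enzymes of amino acid supply, 2 rose and none fell in WT cells, and 5 rose and none fell in KO cells. Slc7a5, an amino acid carrier, rose by 1.69 and 1.72, Cebpb by 1.34 and 1.29, and Asns, asparagine synthetase, by 1.79 ± 0.43 in KO cells (limma, adjusted p = 0.00335). From 0 h to vehicle 7 of the 11 fell and 1 rose in WT cells (7.01% and 7.17% of all genes did), and 3 fell and 1 rose in KO cells (5.8% and 6.78% of all genes did), among them Slc7a5 (-3.08 ± 0.32 in WT, limma, adjusted p = 1.86e-05, and -1.22 in KO cells). The vehicle responses of the genotypes differed for 0 of these 11 (0% of all genes). At 0 h their median KO minus WT difference was -0.94, with 0 of 11 called (0.14% of all genes were). There 6 of 11 had an unadjusted p under 0.05, beside 1059 of all 17097 genes. The LPS counts of the lists depend on the scaling. On deposited values, 1 and 6 NRF2 partners, 3 and 14 glutathione and 1 and 7 thioredoxin genes rose and fell with LPS in WT cells. So did 0 and 5 NADPH, 1 and 4 heme and iron, 4 and 5 detoxification and 2 and 1 ATF4 genes. In KO cells the same lists on deposited values had, in that order, 4 and 1, 4 and 9, 2 and 2, 2 and 2, 2 and 2, 8 and 4, and 4 and 0.

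**Figure D5:**
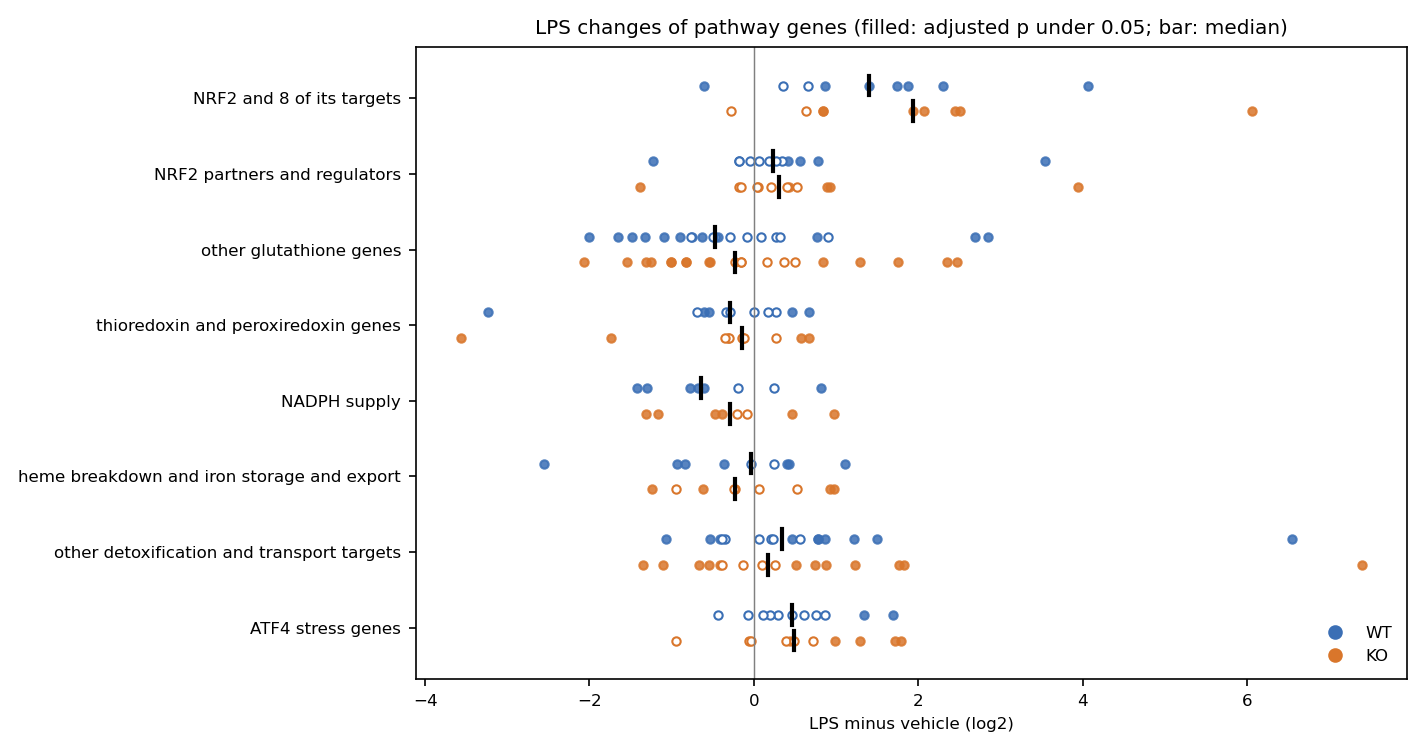
LPS minus vehicle (x axis, log2) for each gene of the member list and of 7 related lists (y axis), WT and KO; filled points had an adjusted p under 0.05 and the bar is the median of a list. The member list has medians of 1.40 and 1.93, and the other glutathione genes have -0.48 and -0.23.

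How alike the members were across the 18 arrays is given as Pearson's r, a description over arrays that share 3 treatments. Txnrd1 and Srxn1 were each other's most similar gene among all 17097 (r = 0.996), and Procr, a protein C receptor, was among the 3 most similar genes of both (0.983 and 0.992). Slc7a11 was most like Zfp811 (0.993), the cytokine gene Il6 (0.993) and the prostaglandin synthase gene Ptgs2 (0.990). Gclc was most like Me1 (0.951) and the porphyrin transporter gene Abcb6 (0.945), and Gclm like the arginine carrier gene Slc7a2 (0.973). Me1, Abcb6 and Gclc were all raised in the third KO vehicle array, by 0.77, 1.01 and 1.60 over the other 2 arrays. The part of that array in their likeness was not tested. Hmox1 was most like Mrpl52 (0.987), Gsr like the proteasome gene Psma3 (0.968), Nqo1 like Ppic (0.915) and Nfe2l2 like Amz2 (0.926).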

How the data were processed

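RNA of 18 samples in 6 groups of 3 was measured on Affymetrix arrays. The deposited table holds linear intensity for every probe set. Per the submitters' processing notes the authors used Partek. Its version, and how background and scale were treated, is not given in the sources used here. Array medians as deposited differed (11.4 to 18.6), so log2 was taken and arrays were quantile-normalized over 45037 probe sets, leaving out 104 controls. The probe set with the highest mean stood for a gene (28898 probe sets had 1 symbol, 551 several, 15588 none listed), with no filter on dim ones. The nonspecific level is the 95th percentile of 23 control probe sets in each array. Where a whole group lay under it, a fold is given as "at least", from the level.

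With limma 3.58.1 in R 4.3.3, all 18 arrays entered a fit of 6 group means, with two-sided moderated tests for 9 comparisons and 1 added later, KO against WT over the averages of arrays with the same number. The fit was tested on simulated data. Members, gene lists, motifs and comparisons were chosen with earlier results of these data known. Every member is named. Genes of other lists were taken from the 3 largest rises and the 3 largest falls past the threshold in each genotype's LPS comparison and in each difference of responses, and of similar genes the 3 with the highest Pearson's r. The labels do not say whether equal replicate numbers mark a shared mouse or culture. Correlations of same-numbered deviations from group means ran from -0.08 to 0.14, and from -0.05 to 0.14 within a genotype. These correlations cannot settle whether samples were paired. Alternatives were 3 other scalings, a filter and a floor at the nonspecific level, 2 other treatments of probe sets, fits of only the groups compared, blocks, and leaving out replicates. Leave-outs of single arrays, plate column values and lists or probe sets under other settings were added after seeing the data. The number of arrays limits the precision, and no depth applies. No build is named for the array, so probe sets have no positions here.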

Additional observations from a re-analysis of the deposited data

Results flagged for a closer look

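The LPS response of Slc7a11, the cystine carrier gene, differed between genotypes in the test of the difference itself: the KO response exceeded the WT response by 1.99 on the log2 scale (SE 0.37, limma, adjusted p = 0.0127, 3 arrays per group). All 3 KO arrays after LPS were above all 3 WT arrays, and all 3 KO arrays after vehicle were below all 3 WT arrays. The difference after vehicle (-0.45) was not called, and vehicle values lay close to the nonspecific level. The call for the difference of responses was lost under 5 of 19 alternatives (highest adjusted p = 0.129, limma). These were most leave-outs of a replicate and the fit of only the groups compared.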

How the results depend on the processing

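The numbers of members that rose with LPS kept within 1.5 times of 6 in WT (5 to 7) and 7 in KO cells (5 to 8) under all 19 alternatives. The member lower in WT cells, Nfe2l2, became 0 with arrays shifted to the same median, with the mean of all probe sets and with only the groups compared, and 0 to 1 leaving out replicates. The 1 member with a larger KO response became 0 with only the groups compared, 0 to 1 leaving out replicates and 2 without the third KO vehicle array. The 2 higher in KO cells after LPS became 0 with only the groups compared and 1 to 3 leaving out replicates, and the 1 in the averaged comparison 0 to 1. Vehicle against 0 h gave, for 1 higher in WT, 3 with only the groups compared, 1 to 2 leaving out replicates and 2 without the third KO vehicle array; for 1 higher in KO cells, 2 with the filter and 2 with the floor; for 0 lower in WT, 1 with the mean of all probe sets; and for 0 lower in KO cells, 1 with that mean, 0 to 1 leaving out replicates and 1 without the third KO vehicle array. With the mean of all probe sets, Nfe2l2 changed sign for LPS in WT (0.0473) and for vehicle against 0 h in WT (-0.51) and KO cells (-0.48), since its probe sets disagree. Counts without the third KO vehicle array are no separate test, since that array was picked on the values of these genes. The cause of the other changes was not tested.

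A replicate block gave 1.99 for the Slc7a11 difference of responses (limma, adjusted p = 0.0159) and changed no call of a member. Scaling moved all genes: the median LPS change in WT cells was -0.01 and became -0.44 on deposited values, -0.43 with hybridisation controls and -0.05 with the same median, and the genes called higher and lower went from 2347 and 3175 to 743 and 6702, 631 and 4881, and 1580 and 3866. In the difference of LPS responses the split of 89 higher and 102 lower became 278 and 16 on deposited values, 112 and 10 with hybridisation controls and 145 and 42 with the same median. Without the first WT LPS array it was 258 and 241. KO against WT after LPS went from 480 and 539 to 1238 and 129, 515 and 81, and 514 and 235, and with only the groups compared to 46 and 43. Vehicle against 0 h went in WT cells from 1226 and 1198 to 222 and 1465, 171 and 601, and 466 and 1411, and in KO cells from 1159 and 991 to 199 and 1559, 128 and 623, and 338 and 2047.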
